A study of Mus musculus with 4 samples.

Results

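The collagen genes of the mouse lens epithelium were followed after UVB irradiation of the eye in vivo. A gene was taken as a collagen gene when the array annotation gave its symbol as Col, a number, the letter a and a number, and each gene was represented by the probe set of its own with the highest mean signal over the 4 arrays. This gave 44 of the 19938 genes that had an own probe set, and 29 of the 44 had signals above the array median on all 4 arrays. They were sorted by collagen type into 6 genes of type IV, 11 of fibrillar types (I, II, III, V, XI, XXIV and XXVII), 3 of short-chain types (VIII and X) and 24 of other types.

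Lens epithelia came from 8-week-old male C57BL/6 mice, whose right eyes received UVB at 30 mJ/cm2 (UVB), with the foil-shielded left eyes serving as the unexposed side (control). The epithelia were isolated 24 h later, after cortex and nucleus of the lens and the surrounding tissues had been removed. Each of 2 independent experiments gave 1 array per condition, so each group had 2 arrays, and both groups came from the same mice, which had been anesthetised with medetomidine, midazolam and butorphanol, so that control eyes shared the anesthesia. The methods state that 3 mice were used in an animal experiment. Pooling of RNA from several mice on an array is neither stated nor excluded, so that p-values measure only the spread between these arrays.

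The measure is a log2 signal, as deposited, and a difference of 1 is a change of 2-fold. For each of the 44 collagen genes the sum of the UVB and control signals was the same in both experiments to within 0.02, as it was for 100% of the 28944 probe sets. A level of experiment 1 therefore cannot be compared with one of experiment 2, groups without overlap say no more than that UVB minus control kept its sign between experiments, and the fit without pairing of the eyes understates the spread. Limma, a linear model fitted over all probe sets, was run without and with the experiment as a block. For a single gene, an exact permutation test that ignores the pairing has a smallest p of 0.333 with 2 arrays per group. Probe sets differ in how strongly they bind, so levels are compared between arrays and not between genes. All 7 listed lens epithelium markers, among them Foxe3, Pax6 and Cdh1, had signals between 9.54 (Six3) and 12.44 (Maf) on every array, above the 75th percentiles of 8.82 to 8.85. The median log2 fold change of these 7 was −0.06. All 11 measured photoreceptor and all 11 pigment epithelium markers lay above the 25th percentile on at least 1 array as well, Tyr on the UVB arrays alone.

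Collagens are secreted proteins whose chains wind around each other into a rope-like helix. Fibrillar collagens build the fibers of stroma and scar, whereas type IV collagen forms the sheet-like network of basement membranes. The lens capsule is an unusually thick basement membrane that the lens epithelium lays down, and when lens epithelial cells become fibrotic they deposit fibrillar collagens under it. Short-chain collagen of type VIII forms a lattice in the membrane below the corneal endothelium and in vessel walls.

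Col8a1, a chain of the short-chain type VIII lattice, rose 1.85-fold after UVB and had the highest log2 fold change of the 44. Of all 19938 genes it ranked at place 38. Col18a1, whose product carries the antiangiogenic endostatin fragment, came next among the collagens at 1.31-fold, and every other collagen gene lay within 0.165 of 0 on the log2 scale. Type IV genes of the capsule and fibrillar genes of scar tissue were in this narrow range. The plot of all members by class shows how far Col8a1 stood from the rest.

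**Figure D1:**
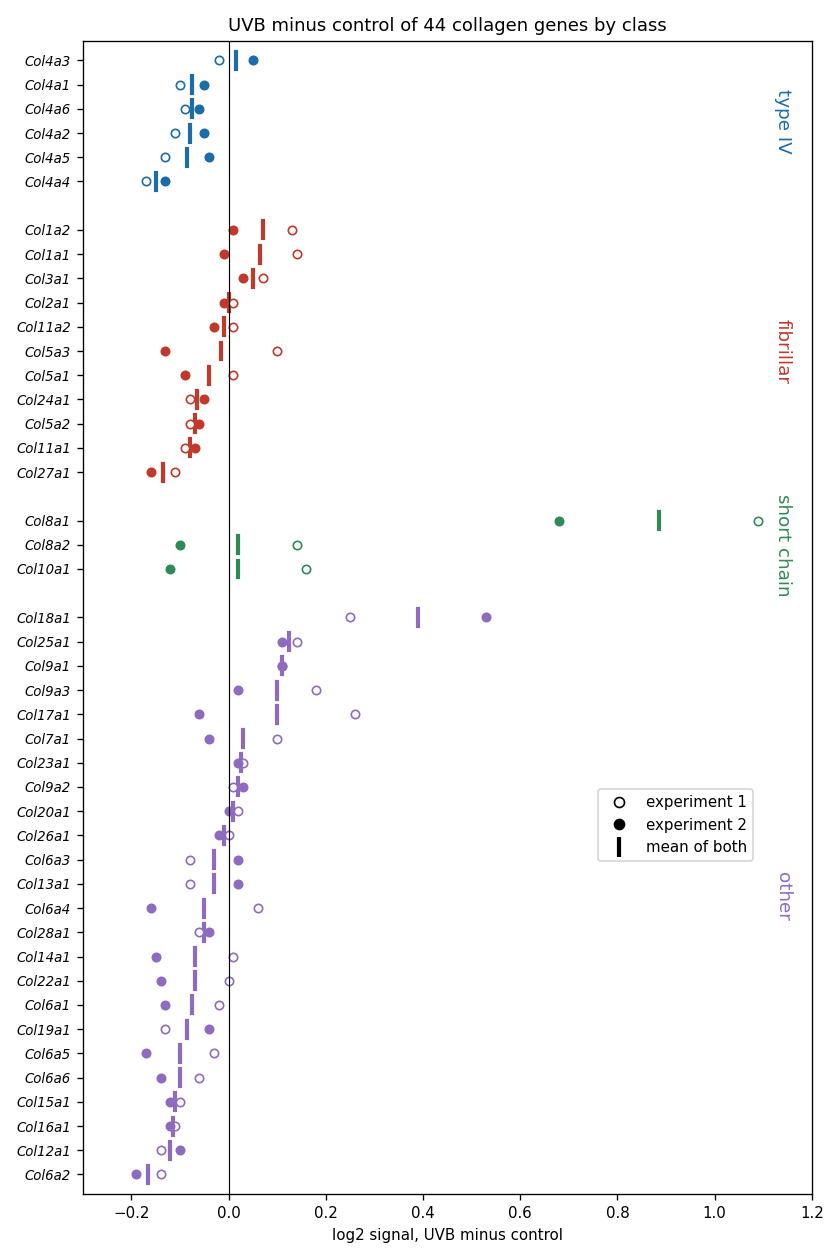
Log2 signal of UVB minus control (horizontal axis) for the 44 collagen genes, sorted within type IV, fibrillar, short-chain and other classes. Experiment 1 is drawn as open and experiment 2 as filled circles, with a bar at the mean of both. Col8a1 (1.09 and 0.68) and Col18a1 (0.25 and 0.53) lie to the right of the others.

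The thresholds of the study, 1.8-fold and an unadjusted p of 0.01, were passed by 1 collagen gene as higher, namely Col8a1, and by 0 as lower. Among all genes, 0.125% passed as higher and 0% as lower. With the experiment as a block in limma, 0 collagen genes and 16 of the 19938 genes passed as higher. With limma's p adjusted over all probe sets, 3 of the 44 collagen genes were higher at 0.05 (6.82%, against 6.19% of all genes) and 8 were lower (18.2%, against 12% of all genes). Those higher were Col8a1, Col25a1 and Col9a1. Those lower were Col4a4, Col5a2, Col6a2, Col11a1, Col12a1, Col15a1, Col16a1 and Col27a1. Before adjustment, 5 were higher and 14 lower at a p of 0.05 in limma. The matching share of all genes was not counted, so no excess among collagens can be read from these 2 counts. The split of adjusted calls was 3 higher and 4 lower with quantile normalization and with equal 75th percentiles. Of all 28944 probe sets, 2150 were higher and 2504 lower with the first of these scalings, and 2348 and 2169 with the second. In limma with the block 0 of all 19938 genes passed an adjusted p of 0.05, the lowest being 0.357. The 0 among the 44 therefore says nothing about collagens. At an unadjusted p of 0.05 with the block, 3 were higher (6.82%, against 5.14% of all genes) and 4 were lower (9.09%, against 8.03%).

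Across both experiments, 9 collagen genes were higher in each (20.5%, against 22.6% of all genes) and 18 were lower in each (40.9%, against 39.5%). The other 17 changed sign between the experiments or had a difference of 0 in one of them. The median log2 fold change of the 44 was −0.035, and that of all genes −0.025. By experiment it was 0 in experiment 1 and −0.05 in experiment 2. As a family the collagens thus had counts near those of all genes, and the values that stood out belonged to individual members.

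**Figure D2:**
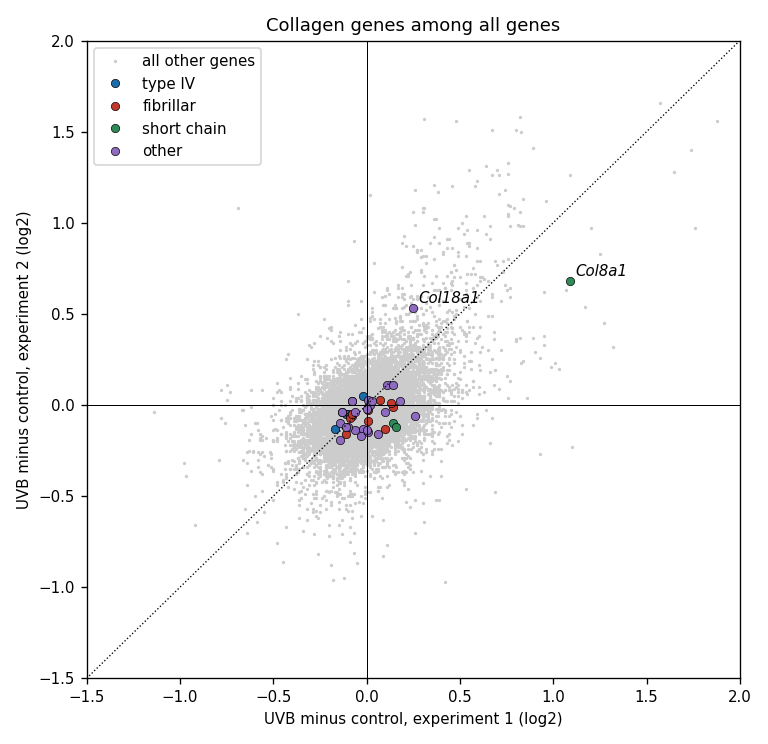
Log2 signal of UVB minus control in experiment 1 (horizontal) and experiment 2 (vertical) for 19938 genes, with the 44 collagen genes coloured by class and equal changes on the dotted line. Col8a1 lies below the line at 1.09 and 0.68, Col18a1 above it at 0.25 and 0.53, and the other collagen genes lie near the origin.

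Col8a1 had log2 signals of 8.17 and 7.96 in UVB-irradiated epithelia of experiments 1 and 2, against 7.08 and 7.28 in control epithelia. UVB minus control was 1.09 in experiment 1 and 0.68 in experiment 2, and 22.6% of all genes were likewise above control in both. The mean was 8.07 ± 0.15 in UVB-irradiated and 7.18 ± 0.14 in control epithelia (SD, n = 2 arrays each). Because the experiment sums are equal, both SDs restate the difference in UVB minus control between the experiments. The log2 fold change was 0.89 (standard error 0.12, or 0.14 with the block). In limma p was 0.00656 before and 0.0429 after adjustment. With the block these were 0.0199 and 0.357, and the 95% interval of the log2 fold change ran from 0.32 to 1.45. Leaving out 1 array in turn gave log2 fold changes between 0.78 and 0.99.

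Its partner Col8a2 and the related Col10a1, which forms a lattice in growth plate cartilage, had values near 0; the difference from Col8a1 was not tested. Col8a2 had signals of 7.72 and 7.60 in UVB-irradiated epithelia, against 7.58 and 7.70 in control epithelia, which gave 0.14 in experiment 1, −0.10 in experiment 2 and a log2 fold change of 0.020. The sign thus changed between the experiments, and the 95% interval with the block, from −0.32 to 0.36, is wide enough to hold a change of either sign. In Col10a1, signals of 6.05 and 5.91 in UVB-irradiated epithelia stood against 5.89 and 6.03 in control epithelia. This is a log2 fold change of 0.020 as well, at signals near the 25th percentiles of the arrays (5.91 to 5.94), and 1 array lay below its own.

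The sequence before the RefSeq start site of Col8a1 (mouse GRCm38.p6, minus strand, chr16:57754738-57754987) is shown because Col8a1 had the highest change among the collagens. Capitals mark matches, on either strand, to the GC box (GGGCGG), which general promoter factors of the Sp family bind, and to the motif of EGR1 (GCGNGGGCG), an immediate early factor. Other motifs searched were the core of the homeobox factors OTX and CRX, spelled TAATCC, that of the immediate early factor AP-1, spelled TGANTCA, and the TATA box, spelled TATAAA.

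Col8a1: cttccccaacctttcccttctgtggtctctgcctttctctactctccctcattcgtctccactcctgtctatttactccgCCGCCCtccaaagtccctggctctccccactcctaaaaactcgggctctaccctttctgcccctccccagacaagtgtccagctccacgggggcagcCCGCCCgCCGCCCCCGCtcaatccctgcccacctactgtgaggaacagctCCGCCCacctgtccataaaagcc

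The 250 bases were 60.8% G and C. They held 4 matches to the GC box, and the EGR1 motif at position −65 from the start overlapped the GC box at −66. Over all 32817 promoter windows of 300 bases (250 before and 50 after the start), 35.6% held a GC box and 5.56% the EGR1 motif. Of the collagen genes, 35 of 44 had a window in the table, in 38 windows, and 23 of these windows held a GC box, 3 the EGR1 motif (Col8a1, Col4a1 and Col4a2), 1 the AP-1 motif (Col6a1), 5 the TATA box and 0 the OTX and CRX core. That core was in 7.06% of all windows, the AP-1 motif in 7.81% and the TATA box in 13.6%. The Col4a1 and Col4a2 matches are the same bases, since their windows overlap. These are letter matches, and the arrays do not measure binding.

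Col18a1 had log2 signals of 8.71 and 8.85 in UVB-irradiated epithelia of experiments 1 and 2, against 8.46 and 8.32 in control epithelia. UVB was above control by 0.25 in experiment 1 and by 0.53 in experiment 2. The log2 fold change was 0.39 (standard error 0.084, or 0.099 with the block). Limma's adjusted p was 0.0777, so that neither threshold was passed. With the block it was 0.357, and the 95% interval ran from −0.0030 to 0.78. Col18a1 and Col15a1 are the multiplexins, basement membrane collagens whose helix is broken up by other stretches. Col15a1 fell to 6.99 and 6.98 in UVB-irradiated epithelia, against 7.09 and 7.10 in control epithelia (log2 fold change −0.11, limma's adjusted p = 0.0263, not called with the block). The 2 multiplexins thus had opposite signs in each experiment, a difference that was not tested.

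Col18a1 has 2 start sites in RefSeq, which give proteins of different N-terminal length, and 1 probe set here, so that a change in either transcript cannot be told apart. The 250 bases before each are shown, with the same capitals, since they belong to the collagen with the next highest change.

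Col18a1 upstream start (chr10:77166531-77166780, minus strand): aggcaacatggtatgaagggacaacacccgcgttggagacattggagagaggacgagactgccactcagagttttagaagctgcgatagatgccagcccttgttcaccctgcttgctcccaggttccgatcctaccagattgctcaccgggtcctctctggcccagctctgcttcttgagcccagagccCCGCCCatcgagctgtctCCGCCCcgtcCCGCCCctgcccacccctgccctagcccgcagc
Col18a1 downstream start (chr10:77113706-77113955, minus strand): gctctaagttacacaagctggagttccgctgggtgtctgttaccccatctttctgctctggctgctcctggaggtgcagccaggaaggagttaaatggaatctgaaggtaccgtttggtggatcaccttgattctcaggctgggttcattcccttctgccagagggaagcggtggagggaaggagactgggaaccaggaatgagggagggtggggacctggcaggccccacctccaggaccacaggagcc

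The upstream stretch was 62.0% G and C with 3 GC boxes, and the downstream stretch was 57.6% G and C with 0 matches to the 5 motifs.

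Markers of other eye tissues moved in the same arrays. Of 11 markers of the retinal pigment epithelium and pigment cells, all 11 had higher signals in the UVB array of each experiment, where 22.6% of all genes had. Their medians were 0.77 in experiment 1 and 0.97 in experiment 2. Their summed signals, on a linear scale, were 5977 and 5824 in UVB arrays against 2470 and 2481 in control arrays. All 5 ciliary body markers were higher in both experiments, where 22.6% of all genes were, with medians of 0.23 and 0.60. Their summed signals were 4135 and 5195 in UVB against 3514 and 2807 in control arrays. For 11 measured photoreceptor markers the medians were 0.70 and 1.26, and the sums 13845 and 17061 in UVB against 8832 and 7188 in control arrays. In these 3 lists, 0 markers lay below the 25th percentile on all arrays. Tyr lay below it on both control arrays (5.38 and 5.45, against percentiles of 5.92 and 5.94) and above it on the UVB arrays alone. The part of these tissues in the Col8a1 and Col18a1 values was not tested, and in such samples more cells of a type and more RNA per cell cannot be told apart.

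**Figure D3:**
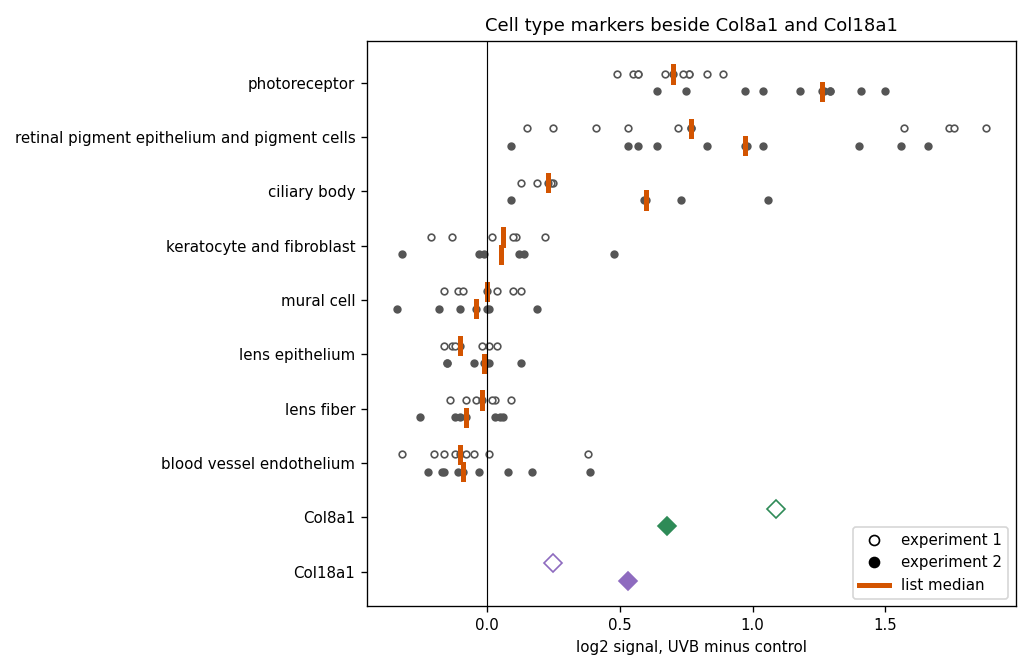
Log2 signal of UVB minus control (horizontal axis) for markers of 8 cell types and, below them, Col8a1 and Col18a1. Open symbols are experiment 1, filled symbols experiment 2, and orange bars the list medians. Photoreceptor, pigment epithelium and ciliary body markers lie above 0 in both experiments, and the list medians of lens epithelium are −0.10 and −0.010.

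Markers of vessel endothelium, mural cells and keratocytes and fibroblasts had smaller medians, and the part of these cells in the collagen values was not tested. Of 9 markers of vessel endothelium, 2 were higher and 6 lower in both experiments (median −0.105), where 22.6% and 39.5% of all genes were. Kdr was higher by 0.38 and 0.39 (limma's adjusted p = 0.0210, 0.357 with the block), while 3 of the 9 were lower at an adjusted p of 0.05. The sums were 1000 and 1014 in UVB arrays against 1055 and 1038 in control arrays. Of 7 mural cell markers, 1 was higher and 2 were lower in both experiments, against the same shares of all genes. Their median was −0.055, with sums of 2864 and 2945 in UVB against 3051 and 2983 in control arrays. Of 6 keratocyte and fibroblast markers, 3 were higher and 2 lower in both, again against these shares. Their median was 0.020, with sums of 7405 and 7583 in UVB against 7322 and 7142 in control arrays. Of these 6, 4 are also proteoglycans of the list given last. Of the 6, 2 lay below the 25th percentile on all arrays, as did 1 of the endothelial markers. Linear sums weigh the strongest probe sets most. These were Pdgfrb among mural cell, Ogn among keratocyte and fibroblast and Optc among ciliary body markers. Lens fiber markers had a median of −0.070.

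Type IV genes, which encode the network of the capsule, were lower by small amounts in 5 of 6 cases. Col4a4 was the only one past an adjusted p of 0.05, and 5 of the 6 were below control in both experiments, where 39.5% of all genes were. The median over the 6 was −0.105 in experiment 1 and −0.05 in experiment 2, or −0.0775 for the log2 fold change, and it stayed between −0.0975 and −0.0575 over the scalings of the arrays.

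Col4a4 fell to log2 signals of 8.87 and 8.89 in UVB-irradiated epithelia of experiments 1 and 2, against 9.04 and 9.02 in control epithelia. The differences were −0.17 in experiment 1 and −0.13 in experiment 2. The log2 fold change was −0.15 (standard error 0.014, or 0.0305 with the block), or 1.11-fold lower. Limma's adjusted p was 0.0285, or 0.357 with the block, with a 95% interval from −0.27 to −0.029. Col4a4 encodes a chain that assembles with the products of Col4a3 and Col4a5 in mature basement membranes such as those of the kidney glomerulus.

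Col4a3 gave signals of 10.08 and 10.11 in UVB-irradiated epithelia, against 10.10 and 10.06 in control epithelia. The sign changed between the experiments (−0.020 and 0.050), and the log2 fold change was 0.015, or −0.005 after centring the arrays on their medians. Col4a5 had 9.08 and 9.13 after UVB and 9.21 and 9.17 in control (log2 fold change −0.085). Col4a6, whose chain joins that of Col4a5 in smooth muscle and other basement membranes, had 9.11 and 9.13 after UVB and 9.20 and 9.19 in control (−0.075). Col4a5 and Col4a6 were below control in both experiments, as 39.5% of all genes were, and limma's adjusted p was 0.147 and 0.0520. For Col4a6 it was 0.0445 with an intensity trend in the variance and 0.0397 over probe sets above the median level.

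Col4a1 and Col4a2 encode the chains of the network found in nearly all basement membranes. Col4a1 had log2 signals of 11.27 and 11.30 in UVB-irradiated epithelia, against 11.37 and 11.35 in control epithelia. Col4a2 had 11.50 and 11.53 in UVB-irradiated epithelia, against 11.61 and 11.58 in control epithelia. The differences were −0.10 and −0.050 for Col4a1 and −0.11 and −0.050 for Col4a2 in experiments 1 and 2. Neither passed (limma's adjusted p = 0.0851 and 0.0945), and with the block the 95% intervals ran from −0.20 to 0.053 and from −0.22 to 0.055. Of the 6 type IV genes, Col4a4 had the largest change, and the 2 of the widespread network had 1.05-fold and 1.06-fold lower signals after UVB.

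**Figure D4:**
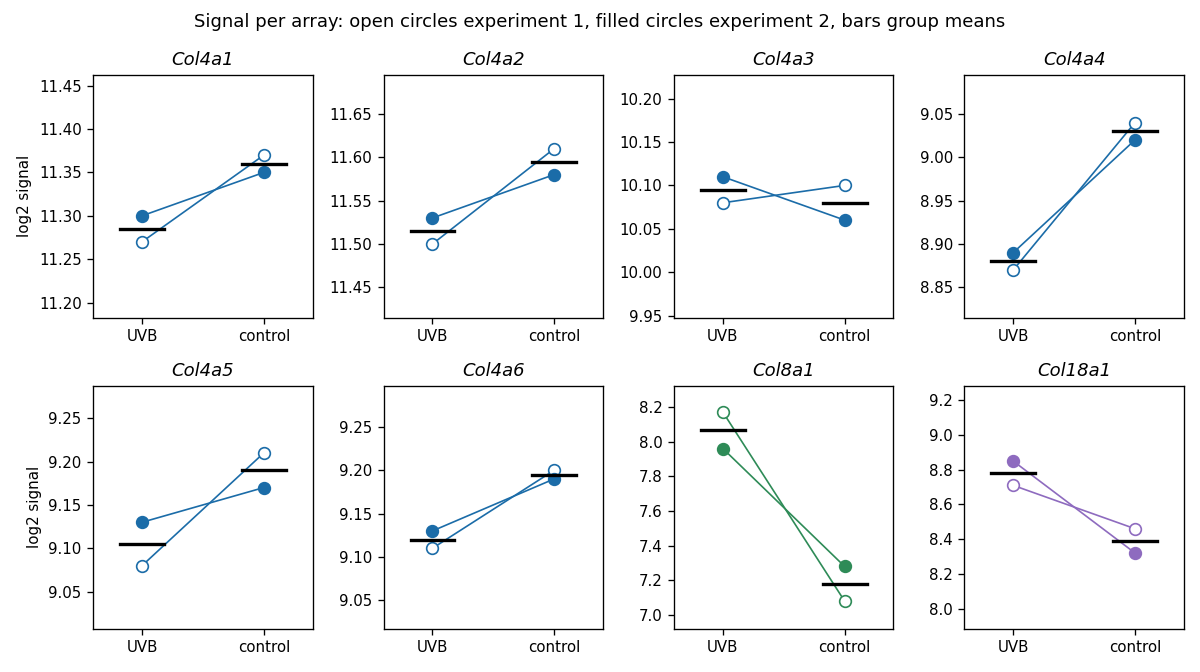
Log2 signal (vertical axis, with its own range in each panel) of the 6 type IV genes, Col8a1 and Col18a1 in UVB arrays (left) and control arrays (right). Open circles are experiment 1, filled circles experiment 2, lines join arrays of the same experiment and bars are group means. The axes of the Col8a1 and Col18a1 panels cover a wider range than the others, and among these 8 genes the sign differs between the experiments in Col4a3 alone.

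The type IV genes lie head to head in pairs, a feature that the choice of genes did not use. In GRCm38.p6, Col4a1 (chr8:11198423-11312889) and Col4a2 (chr8:11312805-11449287) overlap by 85 bases, and Col4a4 (chr1:82448419-82587034) and Col4a3 (chr1:82586921-82722059) by 114 bases, while Col4a6 (chrX:141165403-141474095) and Col4a5 (chrX:141475370-141689236) are 1274 bases apart. The 22 bases shared by the start sites of Col4a1 and Col4a2 (chr8:11312805-11312826) are given below on the strand of Col4a2, and they contain the EGR1 and GC box matches mentioned above.

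Col4a1 and Col4a2: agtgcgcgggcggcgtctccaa

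The log2 fold changes were −0.075 and −0.08 in the pair Col4a1 and Col4a2, and −0.075 and −0.085 in the pair Col4a6 and Col4a5. In the pair Col4a4 and Col4a3 they were −0.15 and 0.015. The difference within a pair was not tested.

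Fibrillar genes, whose products make up scar and stroma, had medians of 0.010 in experiment 1 and −0.05 in experiment 2, and −0.015 for the log2 fold change. Of the 11, 0 were higher and 3 lower at 0.05 by limma's adjusted p, where 6.19% and 12% of all genes were. In both experiments 2 were above and 4 below control, where 22.6% and 39.5% of all genes were. Type I and type III, the collagens of fibrotic tissue, had log2 fold changes between 0.05 and 0.07.

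Col1a1 had log2 signals of 7.87 and 7.79 in UVB-irradiated epithelia, against 7.73 and 7.80 in control epithelia. Its difference was 0.14 in experiment 1 and −0.010 in experiment 2, so that the sign changed. Col1a2, the other chain of type I, had 8.28 and 8.22 in UVB-irradiated epithelia, against 8.15 and 8.21 in control epithelia, and differed by 0.13 and 0.010. Both chains of type I thus differed mainly in experiment 1. Col3a1, which is laid down with type I in young scar, had 7.30 and 7.28 in UVB against 7.23 and 7.25 in control arrays, with 0.070 and 0.030. Limma's adjusted p was 0.381 for Col1a1, 0.265 for Col1a2 and 0.116 for Col3a1. With the block the 95% intervals ran from −0.17 to 0.30, from −0.13 to 0.27 and from −0.071 to 0.17.

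The fibrillar genes that fell were Col27a1, Col11a1 and Col5a2. Col27a1, a minor fibrillar collagen of cartilage, had 8.19 and 8.16 in UVB-irradiated epithelia, against 8.30 and 8.32 in control epithelia (log2 fold change −0.135, limma's adjusted p = 0.0383). Col11a1, which sits inside fibrils of type II, had 7.06 and 7.07 in UVB against 7.15 and 7.14 in control arrays (−0.08, adjusted p = 0.0365). Col5a2, which helps type I fibrils to start, had 6.48 and 6.49 in UVB against 6.56 and 6.55 in control arrays (−0.07, adjusted p = 0.0432). All 3 were below control in both experiments, as 39.5% of all genes were, and with the block 0 of them were called. Signals of Col5a2 and Col11a1 lay below the array medians of 7.19 to 7.22.

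The remaining fibrillar genes showed smaller or mixed differences. Col24a1 had 6.90 and 6.91 in UVB-irradiated epithelia, against 6.98 and 6.96 in control epithelia (−0.065, limma's adjusted p = 0.0660). The other chains of type V had log2 fold changes of −0.04 (Col5a1) and −0.015 (Col5a3, 0.10 in experiment 1 and −0.13 in experiment 2). Col2a1, the collagen of cartilage and vitreous, had 7.98 and 7.97 in UVB against 7.97 and 7.98 in control arrays and thus a log2 fold change of 0, and its partner Col11a2 one of −0.01. With equal 75th percentiles, Col5a3 had 0.005 and Col11a2 0.01.

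Among the 24 other collagens, 2 were higher and 4 lower at 0.05 by limma's adjusted p (8.33% and 16.7%, near the 6.19% and 12% of all genes), and the median log2 fold change was −0.04. Col25a1, a transmembrane collagen of neurons, had 6.97 and 6.96 in UVB-irradiated epithelia, against 6.83 and 6.85 in control epithelia (log2 fold change 0.125, adjusted p = 0.0287). Col9a1, which coats type II fibrils in cartilage and vitreous, had 8.13 in both UVB arrays and 8.02 in both control arrays (0.11, adjusted p = 0.0224). Its arrays were identical within each group after rounding to 2 decimals. Its standard error of 0.0079 (0.0273 with the block) therefore rests on the spread of other probe sets. Its partners Col9a3 and Col9a2 had log2 fold changes of 0.10 (0.18 and 0.020) and 0.020 (0.010 and 0.030).

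Col6a2, a chain of the beaded filaments that lie around cells, had the lowest log2 fold change of the 44. Its signals were 8.28 and 8.25 in UVB-irradiated epithelia, against 8.42 and 8.44 in control epithelia (−0.165, adjusted p = 0.0310 from limma, 0.357 with the block). The other chains of type VI were lower in the mean too, from −0.10 for Col6a5 and Col6a6 to −0.03 for Col6a3, and none of these passed an adjusted p of 0.05. Over the 6 genes the median was −0.0875, and 4 were below control in both experiments, as 39.5% of all genes were. Further probe sets of Col6a5 and Col6a6, not used for the counts, had log2 fold changes of −0.005 and −0.03.

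Collagens that attach to the surface of fibrils, known as FACIT, had 1 called higher and 2 called lower of 9, where 6.19% and 12% of all genes were. Col12a1 fell to 6.65 and 6.67 in UVB-irradiated epithelia, against 6.79 and 6.77 in control epithelia (−0.12, limma's adjusted p = 0.0351). Col16a1 fell to 7.62 and 7.61 in UVB against 7.73 and 7.73 in control arrays (−0.115, adjusted p = 0.0238). Neither gene was called with the block. In the remaining FACIT genes Col14a1, Col19a1, Col20a1 and Col22a1, log2 fold changes lay between −0.085 and 0.01.

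Collagens of epithelial attachment differed between the experiments. Col17a1, a transmembrane collagen of hemidesmosomes, had 7.18 and 7.02 in UVB-irradiated epithelia, against 6.92 and 7.08 in control epithelia, so that it differed by 0.26 in experiment 1 and −0.060 in experiment 2. Col7a1, which forms the anchoring fibrils below stratified epithelia, differed by 0.10 and −0.040. The membrane collagens Col13a1 and Col23a1 had log2 fold changes of −0.03 and 0.025, and Col26a1 and Col28a1 of −0.01 and −0.05.

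Genes that modify, cut and crosslink collagen chains had differences between −0.31 and 0.155 on the log2 scale. Of 30 measured of 33 listed, 1 was higher and 4 were lower at 0.05 by limma's adjusted p, where 6.19% and 12% of all genes were, and 17 were below control in both experiments, as 39.5% of all genes were. The median log2 fold change was −0.065, against −0.025 for all genes. P4ha2, a prolyl hydroxylase subunit that stabilizes the helix, had 9.56 and 9.62 in UVB-irradiated epithelia, against 9.91 and 9.84 in control epithelia (−0.285, adjusted p = 0.0432). Colgalt2, a galactosyltransferase for collagen, had 8.47 and 8.48 in UVB against 8.63 and 8.62 in control arrays (−0.15, adjusted p = 0.0217). P4ha3 fell by 0.11, as did Loxl1, a crosslinking oxidase named after its value was seen, by 0.075. Pcolce2, which enhances procollagen cleavage, rose by 0.13. In limma with the block 0 were called, as among all genes. At an unadjusted p of 0.05 with the block, 1 was higher and 3 were lower, where 5.14% and 8.03% of all genes were.

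In receptors and uptake of collagen, 1 of 10 measured genes was higher and 0 were lower by the same test, where 6.19% and 12% of all genes were. This was Lair1, a collagen receptor of leukocytes (log2 fold change 0.11, limma's adjusted p = 0.0224). Its signals, 6.54 in both UVB and 6.43 in both control arrays, lay below the array medians. As they were identical within each group after rounding, the standard error of 0.0079 (0.0273 with the block) rests on the spread of other probe sets. Of 13 basement membrane partners of type IV, 2 were higher and 0 lower against the same shares of all genes, namely Nid2, a nidogen that links laminin to type IV collagen (0.13), and the laminin chain gene Lama4 (0.085), whose signals of 5.48 and 5.49 in UVB-irradiated and 5.40 and 5.40 in control epithelia were below the 25th percentiles. Their median was 0.005. Of 11 small leucine-rich proteoglycans, which bind to collagen fibrils, Ogn was higher (0.11) and Bgn lower (−0.10) by the same test. Their median was 0.11, and 8 of the 11 were above control in both experiments, where 22.6% of all genes were, while 5 lay below the 25th percentile on all arrays. The largest log2 fold changes were 0.655 for Optc, 0.56 for Prelp and 0.26 for Fmod, named after their values were seen, and limma's adjusted p was 0.171, 0.147 and 0.113. Optc is also among the ciliary body markers, and the part of that tissue in these values was not tested. In limma the block left 0 calls in these 3 lists, as among all genes. An unadjusted p under 0.05 with the block was found for 1 receptor and 1 basement membrane partner, both higher, where 5.14% of all genes were.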

How the data were processed

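The deposited values are log2 signals per probe set, rounded to 2 decimals. The submitters' processing notes name Affymetrix Expression Console, and no source used here gives the version or how background and probes were treated. The methods name a human array, whereas the platform annotation gives mouse symbols, which were used (21789 probe sets with 1 symbol, 1621 with several, 5534 with none). Experiment numbers were taken from the sample titles. The methods pair the eyes of the same mice by experiment, and deviations of same-numbered arrays had a correlation of −0.998, which the equal experiment sums produce.

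The comparison of UVB and control used limma (version 3.58.1, R 4.3.3) in two-sided tests of 28944 probe sets, with Benjamini-Hochberg adjustment over all of them and 2 residual degrees of freedom (1 with the block). The fit was tested on simulated data. Every type IV, fibrillar and short-chain gene was to be named, other collagens if called or among the 8 largest changes that kept their sign between experiments, and up to 4 called genes per list; the remaining collagens are given for completeness. Alternatives were the experiment as a block, other scalings, variance priors, filters and probe set rules, an unpaired Student's t-test and leaving out each array. The methods name that t-test among their general statistics, whereas the study selected its array genes with the Transcriptome Analysis Console. The members and lists were chosen with earlier results of these data known. Promoter windows and start sites are from RefSeq, GRCm38.p6. The number of arrays limits the precision. Markers were matched by symbol, and 5 listed genes were not analysed here.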

Additional observations from a re-analysis of the deposited data

How the results depend on the processing

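Col8a1 passed 1.8-fold and p of 0.01 (unadjusted) under each scaling, prior, filter and probe set rule. With the experiment as a replicate block 0 collagen genes passed, and 16 of the 19938 genes did as higher. In the t-test 0 collagen genes passed (unadjusted p = 0.0258 for Col8a1). The number of all genes that passed in that test was not counted, so its 0 is not read as a result about collagens. With any 1 of the 4 arrays left out, the log2 fold change of Col8a1 lay between 0.78 and 0.99. At an adjusted p of 0.05, 3 higher and 8 lower became 0 and 0 with the replicate block, in the t-test and with any 1 array left out (0 to 0), settings in which 0 of all 28944 probe sets were called, so that these counts say nothing about collagens. In limma with the block, 3 higher and 4 lower had an unadjusted p under 0.05 (shares of all genes 5.14% and 8.03%). In the t-test these were 3 and 11. The share of all genes was not counted there, so no excess among collagens can be read from them. In that test 1213 probe sets without spread within the groups had no p, among them that of 1 collagen gene, Col9a1. Besides the 11 called genes, the block changed no call. The lower calls numbered 4 with quantile normalization, 4 with equal 75th percentiles and 5 over probe sets above the median level, where fewer genes were tested. Of all probe sets, 2504 and 2169 of 28944 and 2278 of 14448 were lower in these settings, against 3184 of 28944 in the main fit. Quantile normalization lost Col5a2, Col11a1, Col12a1 and Col27a1, and equal 75th percentiles lost Col5a2, Col6a2, Col15a1 and Col27a1. That filter also set the median of the other collagens at 0 and of the short-chain genes at 0.45, since it left out Col10a1. The median of the fibrillar genes lay between −0.06 and 0 when 1 array was left out. Signs changed in genes near 0. Col4a3 had −0.005 with centring on the median, and Col11a2 and Col5a3 had 0.01 and 0.005 with equal 75th percentiles. With 1 array left out, Col10a1 ranged between −0.05 and 0.09, Col8a2 between −0.04 and 0.08, Col5a3 between −0.075 and 0.045 and Col4a3 between −0.005 and 0.035. Background correction was not varied. Of the 44 log2 fold changes, 34 lay within 0.1 of 0, and the values are rounded to 2 decimals.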
